A study of Mus musculus with 12 samples.

Results

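Chrdl1, which encodes the secreted antagonist chordin-like 1, and 9 other genes of bone morphogenetic protein (BMP) signalling were followed in spiral ganglion neurons of mouse embryos at E14.5. They are 10 of the 25674 genes counted, and all 10 had a row in the table. The set holds the antagonists Chrdl1, Chrd and Nog, the ligands Bmp2, Bmp4, Bmp5 and Bmp7, and the receptors Bmpr1a, Bmpr1b and Bmpr2. Chrdl1 was chosen for its near-complete loss in libraries labelled ISL1CKO, so its difference between the groups is a description and no test is given for it. The other 9 were listed by their role in the pathway, with earlier results of these data known. Only 6 of the 10 genes (Chrdl1, Chrd, Bmp5, Bmpr1a, Bmpr1b and Bmpr2) had enough counts to enter the fit across genes.

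BMPs are secreted dimers that bring together type I and type II receptor kinases on the cell surface. The type II receptor activates the type I receptor, which phosphorylates SMAD1, SMAD5 and SMAD9, and these enter the nucleus with SMAD4 and switch on targets such as the Id genes. Antagonists including chordin, chordin-like 1 and noggin bind the ligands outside the cell and keep them from their receptors. In the inner ear, BMP signalling is known for its part in patterning the otic vesicle and its sensory regions.

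The 6 control samples carried Neurod1Cre and the Rosa26tdTOM (Ai14) reporter. The labels name no Isl1 allele for them. The 6 samples labelled ISL1CKO carried both of these and 2 floxed alleles of Isl1 (Isl1loxP/loxP), which encodes a LIM homeodomain transcription factor. Per the labels, the lines have a mixed C57BL/6/sv129 background, embryos of either sex from 4 litters were used, and each sample held 100 tdTomato+ cells sorted from both inner ears of a single embryo. Cre came from a Neurod1 BAC transgene, so recombination and red fluorescence depend on cells having expressed Neurod1. The numbered samples were treated as separate embryos, as the design text has them, although a label tag calls the numbers technical replicates; if the tag is right, the p-values measure technical spread only.

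Total counts ran from 11895603 to 13857480 per library. Isl1 itself lay between 1171 and 1777 CPM (counts scaled to a common library size, as in the methods) in controls against 1050 to 1589 CPM in libraries labelled ISL1CKO, with overlapping groups (edgeR adjusted p = 0.460), and a count summed over all exons does not test removal of the floxed part. ISL1CKO replicates 2, 3 and 5 held both Xist, at 62.9 to 132 CPM, and Y-linked transcripts, at a mean of 35.7 to 87.3 CPM, although each sample is labelled as a single embryo; these are called the mixed-sex libraries, and the calls and values that move most without them are given both ways. Of the 12 neuron markers, Tubb3, Elavl3 and Snap25 were at 472 CPM or more in every library, while Nefl, Nefm, Gata3 and Elavl4 were called lower (Gata3 from a mean of 1474 to 225 CPM) and Stmn2 and Neurod1 higher. Of 8 marker lists, 3 differed in mean log2(CPM + 1) between the groups by an exact 2-sided permutation test: neuron (8.85 ± 0.509 labelled ISL1CKO against 9.61 ± 0.160, adjusted p = 0.0462), mesenchyme (2.10 ± 0.449 against 1.31 ± 0.286, adjusted p = 0.0173) and hair cell (2.39 ± 0.266 against 3.05 ± 0.475, adjusted p = 0.0462; SD, n = 6). Without the mixed-sex libraries the 3 differences were -0.57, 0.61 and -0.70, against -0.76, 0.79 and -0.66 with all libraries, and with 3 against 6 samples the smallest p that can be had is 0.0119 before adjustment over 8 lists. The other 5 lists did not pass. Of the 6 hair cell markers with a row, Ccer2 was the 1 called (mean 36.7 CPM in controls, 3.83 CPM labelled ISL1CKO). Myo6, the most abundant, averaged 407 and 410 CPM. Myo7a and Otof averaged lower but did not pass, and Pou4f3 and Gfi1 were not tested. Summed hair cell levels overlapped, at 253 to 538 CPM in controls and 293 to 580 CPM in libraries labelled ISL1CKO. Of the 8 lists, macrophage markers varied most within the groups, with summed levels of 2.07 to 394 CPM in controls and 1.46 to 749 CPM in libraries labelled ISL1CKO.

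Among the antagonists, Chrdl1 was abundant in control neurons and nearly gone from the libraries labelled ISL1CKO. Chrdl1 (ENSMUSG00000031283) lies on the minus strand of chromosome X at 143285674 to 143394262 (GRCm38). Its level in control replicates 1 to 6 was 674, 868, 411, 666, 616 and 692 CPM. In ISL1CKO replicates 1 to 6 it was 8.39, 23.1, 3.09, 2.91, 7.07 and 3.43 CPM. The lowest control library thus held far more Chrdl1 than the highest library labelled ISL1CKO, and the groups did not overlap. In raw counts, the libraries labelled ISL1CKO held 39 to 298 counts of the gene each, all above the floor of 3 counts, so the transcript was detected in every library.

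The group mean of Chrdl1 was 654 ± 147 CPM for controls against 8.0 ± 7.76 CPM for the other group (SD, n = 6), a ratio of 81.8. The fitted log2 fold change was -6.36 (SE 0.51). This fall chose the gene. It ranked second by size among the 447 genes that were lower with no overlap between groups and reached a mean log2 CPM of 3. Helt, a transcription factor gene, stood just above it with a log2 fold change of -7.89, and the transporter gene Slc22a3 just below with -5.67. In these pooled cells, fewer cells with a transcript and less of it per cell cannot be told apart.

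The residual Chrdl1 level was uneven. ISL1CKO replicate 2, with 23.1 CPM, stood apart from the other 5, which lay at 2.91 to 8.39 CPM, and it was 1 of the 3 mixed-sex libraries. Without replicate 2 the log2 fold change was -7.04, and without all 3 such libraries it was -7.07. Those 3 libraries held 3.09 to 23.1 CPM and the single-sex ones 2.91 to 8.39 CPM. Because Chrdl1 is X-linked, the controls were also read by sex transcript: the 2 with Xist had 411 and 666 CPM, and the 4 with Y-linked transcripts had 616 to 868 CPM. The lower end of the controls was the library of replicate 3, and neither kind of control came near the libraries labelled ISL1CKO.

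**Figure D1:**
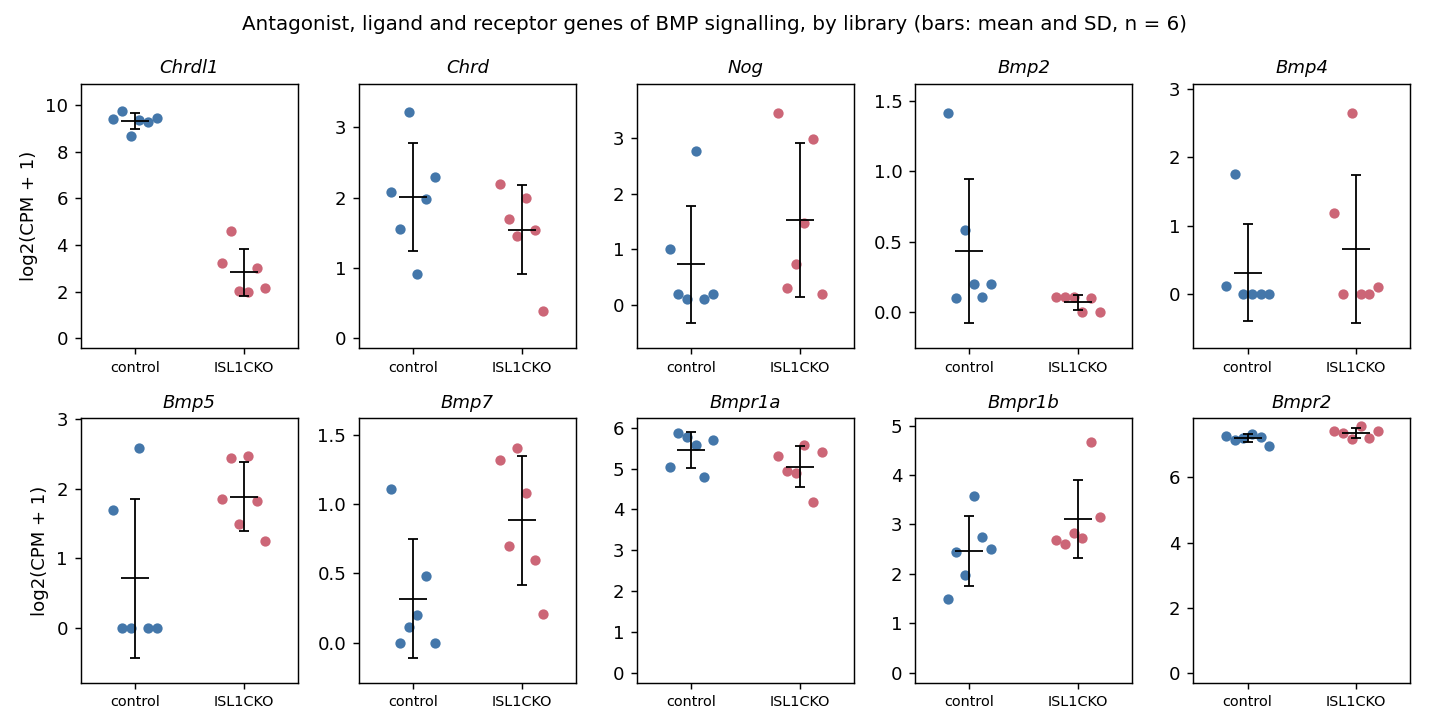
Level of the 10 genes in each library as log2(CPM + 1) (y axis, own scale in each panel), with controls in blue and libraries labelled ISL1CKO in red; points are libraries, and bars give the mean and SD (n = 6). Chrdl1 is the gene whose groups do not overlap, at 411 to 868 CPM against 2.91 to 23.1 CPM, and the points of the other 9 overlap.

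Chrd, which encodes chordin, the founding member of the family, was barely expressed and did not pass the test. It ranged from 0.889 CPM through a median of 3.09 to 8.26 CPM in controls, and from 0.305 through 2.07 to 3.56 CPM in libraries labelled ISL1CKO. The groups overlapped, with a log2 fold change of -0.73, a standard error of 0.57 and an adjusted p of 0.495 in edgeR's quasi-likelihood test. Without control replicate 3, which held 99 counts, the value was -0.28 (edgeR adjusted p = 0.831). Its exons on chromosome 16 (20733127 to 20742384) overlap those of Thpo on the opposite strand, which averaged 2.43 CPM in controls, and because the use of strand in counting is not given in the sources used here, reads of the pair cannot be told apart.

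Nog, which encodes the antagonist noggin, varied widely between libraries of both groups (chromosome 11, 89300638 to 89302332). Control replicate 4 held 78 counts and control replicate 1 held 12, while the other 4 controls held 1 or 2. Among libraries labelled ISL1CKO, replicates 1 and 5 held 125 and 94 counts, replicates 4 and 3 held 24 and 9, and replicates 2 and 6 held 3 and 2. Every library held some counts, 4 labelled ISL1CKO and 2 controls held more than the floor of 3, and Nog was not among the genes with enough counts to be tested.

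Per kilobase of exon, Chrdl1 led the set in control neurons at 96.8 ± 21.8 CPM per kb (SD, n = 6). The next genes were the receptors Bmpr2, at 8.14 ± 0.682, and Bmpr1a, at 7.03 ± 1.97 CPM per kb, which did not differ from each other beyond their spread. Bmpr1b, Nog, Chrd and Bmp5 followed at 0.302 to 0.854 CPM per kb, and Bmp4, Bmp2 and Bmp7 at 0.0743 to 0.182, with overlapping ranges among neighbours. In libraries labelled ISL1CKO the order was led by Bmpr2, at 9.13 ± 0.972, and Bmpr1a, at 5.29 ± 1.67 CPM per kb, and Chrdl1 had dropped to rank 5, at 1.18 ± 1.15 CPM per kb. The range of Chrdl1 there, 0.431 to 3.42 CPM per kb, overlapped those of Bmpr1a, Nog, Bmpr1b, Bmp5, Bmp4 and Chrd.

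Transcripts of the 4 BMP ligand genes were scarce in every library. Bmp2 (chromosome 2, 133552159 to 133562885) and Bmp4 (chromosome 14, 46383520 to 46390669), which encode closely related ligands, were at or below the floor in most libraries. Control replicate 1 had 20 counts of Bmp2 and control replicate 3 had 6, the other controls had 1 or 2, and no library labelled ISL1CKO had more than 1. Bmp4 reached 32 counts in control replicate 2 and 70 and 16 counts in ISL1CKO replicates 3 and 1, and the other 9 libraries had 0 or 1. Neither gene was tested after the filter. Without the filter, Bmp2 had a log2 fold change of -2.88 (edgeR unadjusted p = 0.0111, adjusted p = 0.120), with 20 of its 32 control counts in a single library.

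Bmp5 (chromosome 9, 75775364 to 75900310) and Bmp7 (chromosome 2, 172868012 to 172940321), which belong to another branch of the ligand family, were seen in more of the libraries labelled ISL1CKO than of the controls. ISL1CKO replicates 1 to 6 held 33, 57, 24, 61, 35 and 18 counts of Bmp5. Control replicates 1 and 4 held 27 and 68 counts, and the other 4 controls held 0, where the floor of 3 counts allows up to 0.250 CPM. All 6 libraries labelled ISL1CKO were therefore above the floor, against 2 of 6 controls, but the ranges overlapped. The log2 fold change of Bmp5, 1.24 (SE 1.13), did not pass (edgeR adjusted p = 0.563). Limma-voom gave 3.96 and an adjusted p of 0.0302. With the replicate number as a block the value was 3.69 (edgeR unadjusted p = 0.0282, adjusted p = 0.152). Over all alternatives the value ran from 0.67 to 3.96, and without control replicate 4 it was 2.67.

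The 2 controls with Bmp5 were also the 2 with the highest macrophage marker levels. Their mean log2(CPM + 1) over the 10 macrophage markers was 5.07 and 2.58, against 0.246 to 0.557 in the other controls. Among libraries labelled ISL1CKO, replicates 2 and 5 had macrophage levels of 0.202 and 0.180, and 57 and 35 counts of Bmp5. The part of macrophage RNA in the Bmp5 counts was not tested beyond these values and the next. When macrophage and Schwann marker levels entered the fit, the log2 fold change of Bmp5 was 0.67 (edgeR adjusted p = 0.797). Bmp7 had 2 to 22 counts in the libraries labelled ISL1CKO and 0 to 14 in the controls, where replicate 1, which had the highest macrophage level among controls, held the 14. Bmp7 was above the floor in 5 libraries labelled ISL1CKO and 2 controls, and the filter left it untested.

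**Figure D2:**
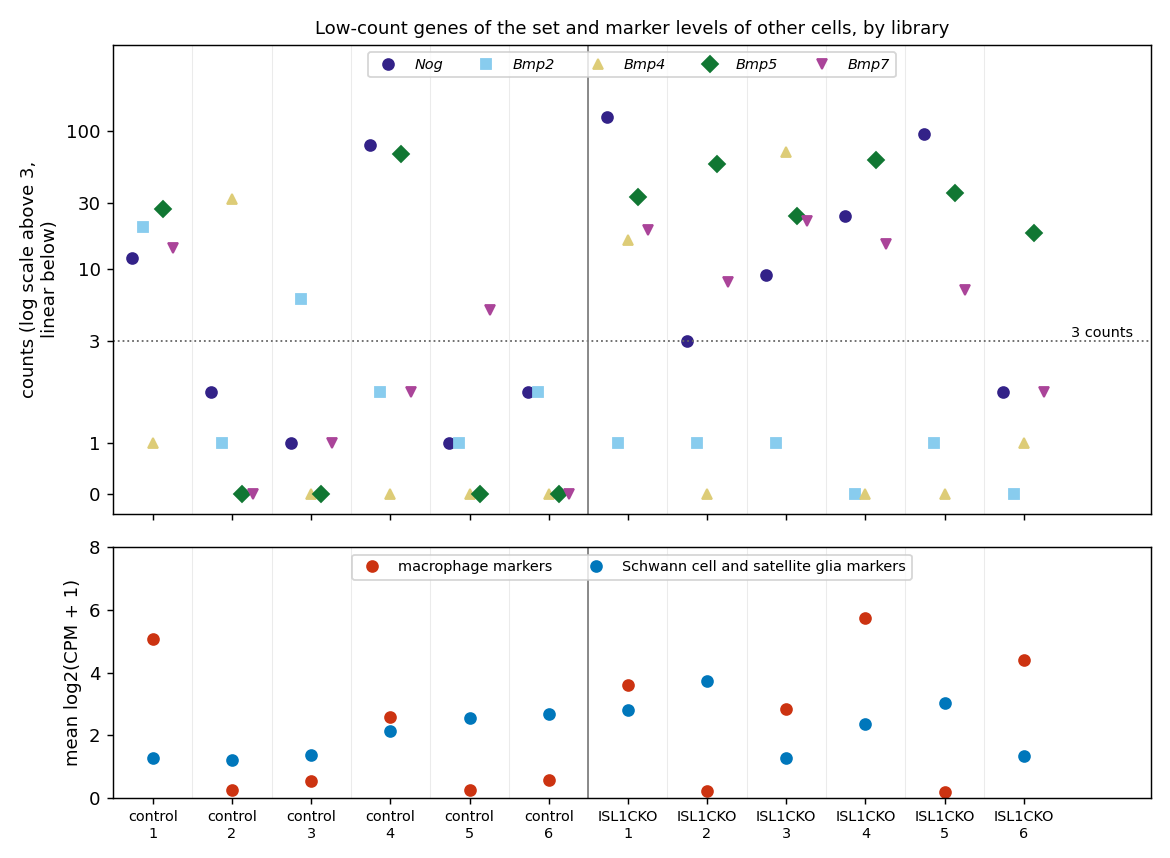
Top: counts (y axis, log scale above 3 and linear below) of the 5 least abundant genes by library, with the floor of 3 counts dotted; bottom: mean log2(CPM + 1) of macrophage and of Schwann cell and satellite glia markers in the same libraries. Bmp5 is above the floor in all 6 libraries labelled ISL1CKO and in control replicates 1 and 4, and at 0 in the other 4 controls.

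None of the 3 receptor genes passed the test. Bmpr2, the type II receptor gene (chromosome 1, 59763400 to 59879014), lay between 125 and 160 CPM in controls (median 149) and between 145 and 191 CPM in libraries labelled ISL1CKO (median 166). These ranges overlapped, and the log2 fold change of 0.17 (SE 0.09) did not pass in edgeR's quasi-likelihood test (adjusted p = 0.280). Bmpr1a, a type I receptor gene (chromosome 14, 34410734 to 34503341), ran from 26.6 CPM through a median of 48.8 to 57.9 CPM in controls and from 17.1 through 34.0 to 46.6 CPM in libraries labelled ISL1CKO. Its log2 fold change was -0.41 (SE 0.24, edgeR adjusted p = 0.335), and -0.09 without the mixed-sex libraries. Bmpr1b, the other type I receptor gene of the set, was lower per length than both.

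Bmpr1b (chromosome 3, 141837136 to 142169425) lay between 1.83 and 11 CPM in controls, with a median of 4.56, and between 5.04 and 24.4 CPM in libraries labelled ISL1CKO, with a median of 5.85. The highest value came from ISL1CKO replicate 5 alone, and the other 5 libraries of that group stayed at 7.93 CPM or less. The log2 fold change of 0.83 (SE 0.49) did not pass (edgeR adjusted p = 0.331), and it was 0.24 without replicate 5 and 0.31 without the mixed-sex libraries, of which that library is one. In all, 0 of the 5 tested genes of the set other than Chrdl1 passed an adjusted p of 0.05 in edgeR's quasi-likelihood test, where 10.2% of all 14813 tested genes did (5.19% lower and 5.01% higher). Nor did the groups of any of these 5 separate without overlap, as 6.78% of all tested genes did (3.65% lower and 3.13% higher). No gene of the 5 had an unadjusted p under 0.05 there. Without the mixed-sex libraries Bmpr2 had a log2 fold change of 0.27 (edgeR unadjusted p = 0.0181, adjusted p = 0.175). With the replicate number as a block, Bmp5 and Bmpr1a had edgeR unadjusted p of 0.0282 and 0.0467 (adjusted p of 0.152 and 0.203). The DESeq2 Wald test called 0 of the 8 genes to which it gave an adjusted p, beside 2470 of 18542 genes in all. Bmp2, which edgeR had left untested, was the 1 with an unadjusted p under 0.05. DESeq2 gave Bmp2 no adjusted p, so it could not be called there. Limma-voom called 1 of 5, Bmp5, beside 1637 of 14813 genes in all. A p that misses the threshold does not show that the levels were equal.

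The promoters of the abundant receptors are shown because SMAD1 and SMAD5 are known to bind the letters GGCGCC, and both windows hold them. RefSeq windows on GRCm38.p6, from 250 bases before to 50 bases after a gene's start, were given for 6 of the 10 genes. GGCGCC, which reads the same on both strands, was in the window of Chrd, Bmpr1a and Bmpr2 and in none of those of Bmp4, Bmp5 and Bmpr1b. It was in 11.9% of all 32851 windows, in 30.9% of those with a GC content of at least 60% and in 3.89% of those below. The Bmpr1a window had 79.3% GC and the Bmpr2 window 59.3%. Capitals mark the match in the Bmpr1a window (chr14:34502497-34502796, minus strand) and in the Bmpr2 window (chr1:59764029-59764328, plus strand), written 5′ to 3′ along the gene. The match is a description of these letters and no evidence of binding.
Bmpr1a: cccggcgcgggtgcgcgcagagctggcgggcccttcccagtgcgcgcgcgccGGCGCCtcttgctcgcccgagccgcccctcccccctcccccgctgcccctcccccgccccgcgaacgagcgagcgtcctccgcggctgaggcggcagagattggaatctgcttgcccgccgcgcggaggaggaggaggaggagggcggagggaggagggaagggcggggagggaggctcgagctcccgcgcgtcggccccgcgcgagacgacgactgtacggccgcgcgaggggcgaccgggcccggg
Bmpr2: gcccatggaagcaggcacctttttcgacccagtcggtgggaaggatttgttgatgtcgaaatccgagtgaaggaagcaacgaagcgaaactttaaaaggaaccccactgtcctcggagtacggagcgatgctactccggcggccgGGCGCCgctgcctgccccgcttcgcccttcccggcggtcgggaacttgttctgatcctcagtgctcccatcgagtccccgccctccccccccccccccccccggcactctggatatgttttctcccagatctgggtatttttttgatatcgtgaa

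Beyond the 10 genes, 69 other genes of the pathway were listed by role, also with earlier results of these data known. Of the 69, 62 had a row and 40 were tested. Adjusted over all genes, edgeR's quasi-likelihood test called 5 of the 40 lower (Rgma, Neo1, Smad1, Smad4 and Id4) and 5 higher (Fstl1, Twsg1, Zeb2, Tob1 and Tbx3) in libraries labelled ISL1CKO. That is 25.0%, beside the 10.2% over all genes. The median log2 fold change of the 40 genes was -0.10, beside 0.0045 over all tested genes, and the groups did not overlap for 7 of the 40, beside 6.78% of all tested genes. Without the mixed-sex libraries 6 of 43 tested listed genes were called, beside 767 of 16222 tested genes in all. Of these 6, Rgma, Neo1, Fstl1, Tob1 and Id4 were the 5 that had been called with all libraries. The other was Bmper.

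Of the other ligand genes, Gdf11, which encodes a TGF-beta family factor, was the most abundant and the only 1 tested. Its mean was 32.8 ± 5.02 CPM for controls against 30.3 ± 6.99 CPM for libraries labelled ISL1CKO (SD, n = 6), with a log2 fold change of -0.11 that did not pass (edgeR adjusted p = 0.757). Bmp3, the next, averaged 0.571 and 0.727 CPM. Gdf11 therefore exceeded each of the 4 BMP ligand genes of the set in both groups, at 8.07 CPM per kb in controls.

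Of the 9 tested receptor and co-receptor genes, 2 fell and 0 rose, beside 5.19% lower and 5.01% higher over all tested genes. Rgma, which encodes a repulsive guidance molecule that also acts as a BMP co-receptor, ranged from 49.2 through a median of 65.6 to 79.9 CPM in controls and from 12.5 through 20.2 to 35.3 CPM in libraries labelled ISL1CKO. The groups did not overlap, and the log2 fold change was -1.51 (SE 0.22, edgeR adjusted p = 3.81e-04). Neo1, which encodes neogenin, the receptor of repulsive guidance molecules, went from 194 ± 28.6 to 106 ± 21.9 CPM (SD, n = 6) without overlap. Its log2 fold change was -0.87 (SE 0.14, edgeR adjusted p = 7.98e-04). Both calls held without the mixed-sex libraries (edgeR adjusted p of 0.00687 and 0.0201). A relative of Rgma, Rgmb, was the most abundant gene of the list at 255 ± 49.3 and 350 ± 73.6 CPM (SD, n = 6), with a log2 fold change of 0.46 that did not pass (edgeR adjusted p = 0.0674). Rgma overlaps a noncoding gene on the opposite strand, so its counts may include reads of that gene.

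Of the 11 tested modulators outside the cell, 2 rose and 0 fell with all libraries, beside 5.01% higher and 5.19% lower over all tested genes. Without the mixed-sex libraries 13 modulators were tested, and of all 16222 tested genes 367 were called higher and 400 lower. Of the 13, 1 rose (Fstl1) and 1 fell: Bmper, which encodes a secreted BMP-binding protein. Bmper had 0.476 to 8.15 CPM in controls and 0 to 2.33 CPM in libraries labelled ISL1CKO, with overlap (log2 fold change -2.27, edgeR adjusted p = 0.196). In the 3 single-sex libraries of that group it had 0 to 0.238 CPM (-4.96, edgeR adjusted p = 0.0394). Those 3 values were all at or below the floor of 3 counts. Fstl1, which encodes a secreted follistatin-like glycoprotein, lay between 98.0 and 160 CPM in controls and between 270 and 607 CPM in libraries labelled ISL1CKO. The groups did not overlap, and the log2 fold change was 1.49 (SE 0.19, edgeR adjusted p = 1.23e-04). Twsg1, which encodes the BMP-binding protein twisted gastrulation, went from 59.3 ± 4.88 to 84.9 ± 8.59 CPM (SD, n = 6), also without overlap. Its log2 fold change was 0.52 (SE 0.10, edgeR adjusted p = 0.00249), and it no longer passed without the mixed-sex libraries (0.42, edgeR adjusted p = 0.0633). Mesenchyme markers were also higher in libraries labelled ISL1CKO, with summed levels of 88.1 to 194 CPM against 39.6 to 99.7 CPM in controls, and 2 of the 11 markers, Tbx18 (0 to 3.73 CPM in controls, 24.6 to 51.4 CPM in the other group) and Col3a1, were called higher. Among the other markers, Col1a1, Dcn and Lum stayed at 2.33 CPM or less in every library. Col1a2, Prrx1 and Postn averaged 4.67, 4.72 and 27.2 CPM in libraries labelled ISL1CKO against 1.30, 0.337 and 9.93 CPM in controls. Pou3f4, Twist1 and Twist2 went the other way, averaging 27.4, 0.0129 and 0.127 CPM against 52.9, 1.13 and 0.232 CPM in controls. Pou3f4 did not pass (edgeR adjusted p = 0.143), and Twist1 and Twist2 were not tested. The part of mesenchyme RNA in the rises of Fstl1 and Twsg1 was not tested.

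Among the 12 SMAD genes and regulators, 2 fell and 2 rose, beside 5.19% lower and 5.01% higher over all tested genes. Smad1, which encodes a BMP-activated SMAD, lay between 64.7 and 138 CPM in controls (median 84.5) and between 47.6 and 60.7 CPM in libraries labelled ISL1CKO (median 51.7). These groups did not overlap, and its log2 fold change was -0.76 (SE 0.16, edgeR adjusted p = 0.00571). Smad4, which encodes the partner shared with TGF-beta signalling, went from 45.8 ± 12.8 to 25.3 ± 5.90 CPM (SD, n = 6) without overlap, and fell by 0.85 on the log2 scale (SE 0.19, edgeR adjusted p = 0.0106). Zeb2, which encodes a SMAD-interacting repressor, went from 334 ± 85.2 to 593 ± 122 CPM (SD, n = 6) with overlapping groups, and rose by 0.83 on the log2 scale (SE 0.17, edgeR adjusted p = 0.00455). Tob1, which encodes an antiproliferative SMAD-binding protein, rose by 0.43 on the log2 scale and was at the edge of the threshold (edgeR adjusted p = 0.0496).

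Without the mixed-sex libraries Smad1, Smad4 and Zeb2 kept folds of similar size but no longer passed, in a fit with fewer samples. Smad1 then stood at -0.69 on the log2 scale (edgeR adjusted p = 0.110), Smad4 at -0.80 (edgeR adjusted p = 0.113) and Zeb2 at 0.81 (edgeR adjusted p = 0.0569). When macrophage and Schwann marker levels entered the fit, Smad1 was at -0.69 (edgeR adjusted p = 0.0634) and Smad4 at -0.73 (edgeR adjusted p = 0.108). Tob1 lost its call in 15 of 20 alternatives, though not without the mixed-sex libraries (0.56, edgeR adjusted p = 0.0458). Of the other 8, the BMP-activated Smad5 had 35.1 ± 4.43 CPM for controls against 28.4 ± 6.79 CPM (SD, n = 6; log2 fold change -0.31, edgeR adjusted p = 0.295). Smad9, the third of that kind, was scarce, at 3.28 ± 3.12 against 0.657 ± 0.885 CPM (SD, n = 6; log2 fold change -2.31, edgeR adjusted p = 0.186). Skil, a SMAD corepressor gene, averaged 104 and 113 CPM. The Zeb2 counts may include reads of genes on the opposite strand.

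**Figure D3:**
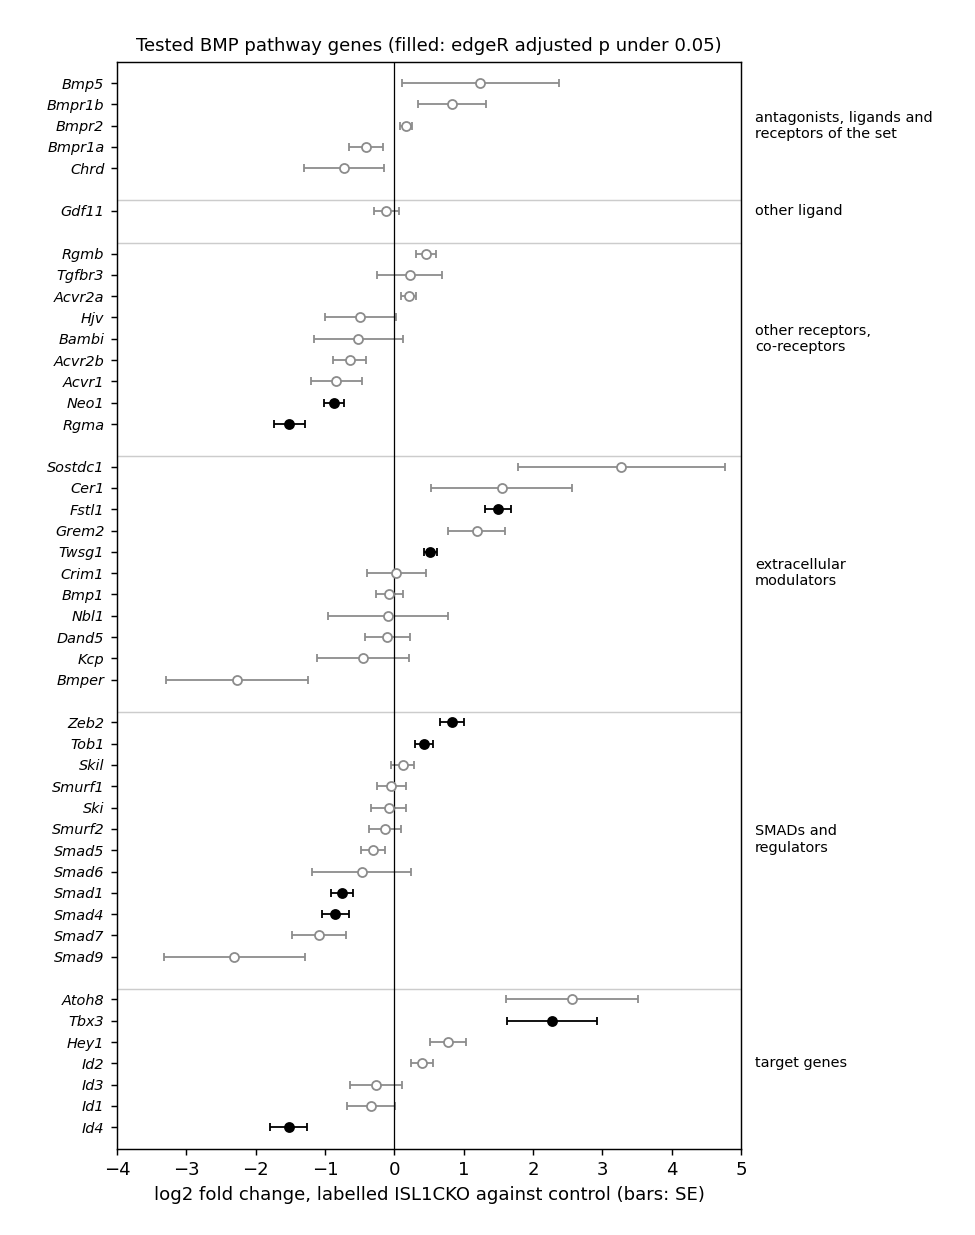
Log2 fold change (x axis, labelled ISL1CKO against control) with its standard error for the 45 tested genes other than Chrdl1, grouped by role; filled points passed an edgeR adjusted p of 0.05. Filled points lie on both sides of 0, with Rgma, Neo1, Smad1, Smad4 and Id4 lower and Fstl1, Twsg1, Zeb2, Tob1 and Tbx3 higher.

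Of the 7 tested target genes, 1 was called lower and 1 higher, beside 5.19% lower and 5.01% higher over all tested genes. The Id genes encode inhibitors of basic helix-loop-helix factors and are the best known BMP targets. Id4 ranged from 34.2 through a median of 44.3 to 47.1 CPM in controls and from 8.10 through 12.3 to 26.6 CPM in libraries labelled ISL1CKO. The groups did not overlap, and the log2 fold change was -1.53 (SE 0.27, edgeR adjusted p = 0.00150). Id1, Id2 and Id3 did not pass, with log2 differences of -0.34, 0.40 and -0.27 and adjusted p of 0.621, 0.132 and 0.720 in edgeR. Id2 was the most abundant of the 4, at 318 ± 64.1 and 421 ± 102 CPM (SD, n = 6), followed by Id3 at 128 ± 57.8 and 106 ± 62.0 CPM. Id4 overlaps noncoding genes on the opposite strand.

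Tbx3, which encodes a T-box repressor, was called higher, at 2.37 ± 1.90 CPM for controls against 11.5 ± 8.22 CPM for libraries labelled ISL1CKO (SD, n = 6). The groups overlapped, with 0.332 to 4.88 CPM against 2.90 to 21.1 CPM. Its log2 fold change of 2.27 (SE 0.65, edgeR adjusted p = 0.0379) was 0.90 without the mixed-sex libraries (edgeR adjusted p = 0.609).

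The promoters of Id2, Id3 and Id4 are shown because these targets of 1 pathway differed in their result. GGCGCC was in the windows of Id2 and Id4 and not in that of Id3, so the letters were shared by a gene that fell and by a gene that did not pass. The second SMAD motif searched, GTCTAGAC, also the same on both strands, was in none of these 3 windows or the 8 windows of the set and in 0.213% of all windows. The windows, from RefSeq on GRCm38.p6, lie at chr12:25096043-25096342 on the minus strand, chr4:136143572-136143871 on the plus strand and chr13:48260866-48261165 on the plus strand, and capitals mark GGCGCC.
Id2: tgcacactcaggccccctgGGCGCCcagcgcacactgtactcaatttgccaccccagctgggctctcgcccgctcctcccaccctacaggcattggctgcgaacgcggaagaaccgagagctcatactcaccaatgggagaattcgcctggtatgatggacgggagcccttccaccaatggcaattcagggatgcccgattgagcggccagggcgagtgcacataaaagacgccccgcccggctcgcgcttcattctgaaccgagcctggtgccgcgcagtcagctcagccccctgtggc
Id3: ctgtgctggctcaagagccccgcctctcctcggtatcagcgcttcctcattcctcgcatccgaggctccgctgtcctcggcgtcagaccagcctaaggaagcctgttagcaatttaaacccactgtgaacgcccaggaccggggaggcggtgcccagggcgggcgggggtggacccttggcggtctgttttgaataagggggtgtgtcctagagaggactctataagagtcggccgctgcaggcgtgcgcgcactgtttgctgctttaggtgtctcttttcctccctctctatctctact
Id4: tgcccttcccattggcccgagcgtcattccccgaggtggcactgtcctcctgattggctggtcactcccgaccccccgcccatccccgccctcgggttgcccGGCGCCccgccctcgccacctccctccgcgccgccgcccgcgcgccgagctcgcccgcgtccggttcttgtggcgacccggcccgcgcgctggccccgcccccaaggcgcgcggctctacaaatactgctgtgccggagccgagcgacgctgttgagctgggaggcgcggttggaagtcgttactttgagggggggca

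The genes whose profile over the 12 libraries was most like that of Chrdl1 were sought among 9909 tested genes whose mean log2 CPM reached 3. The 5 with the highest Pearson's r of log2(CPM + 1) were Peak1 (r = 0.986), Laptm4b (0.986), Helt (0.983), Fgf10 (0.983) and Asap1 (0.981). Peak1 encodes a pseudokinase, Laptm4b a lysosomal membrane protein, Fgf10 a fibroblast growth factor and Asap1 a regulator of ARF GTPases. These values are a description over libraries that share 1 contrast: all 5 genes were lower in libraries labelled ISL1CKO. Within the 6 controls alone r was 0.0850 to 0.874, and within the 6 libraries labelled ISL1CKO 0.472 to 0.819. The sizes of the falls differed widely, from -1.42 for Asap1 to -7.89 for Helt on the log2 scale. Fgf10 was the most abundant, at 873 ± 104 CPM for controls against 143 ± 29.1 CPM for libraries labelled ISL1CKO (SD, n = 6).

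**Figure D4:**
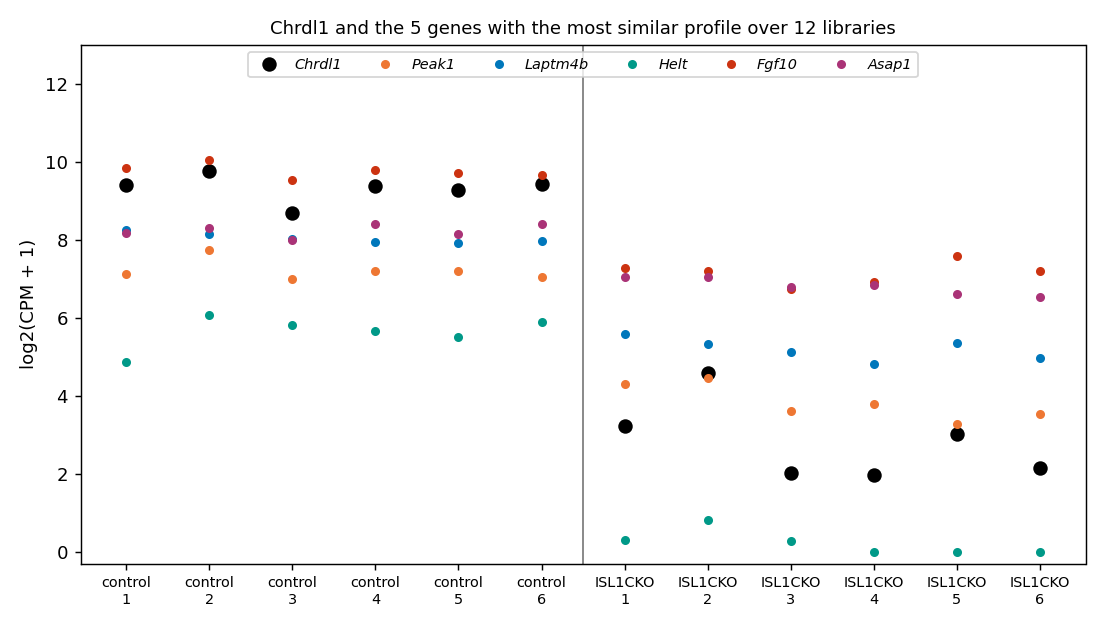
Level as log2(CPM + 1) (y axis) of Chrdl1 and of the 5 genes with the highest r to it, in control replicates 1 to 6 (left) and ISL1CKO replicates 1 to 6 (right); each point is a library. All 6 genes are lower on the right, and the Chrdl1 point of ISL1CKO replicate 2, at 23.1 CPM, is the highest of its group.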

How the data were processed

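RNA was sequenced from 12 samples of 100 sorted tdTomato+ cells each. The authors deposited 1 table of raw counts per Ensembl gene, not normalized. Per the submitters' processing notes, cutadapt 1.18, Bowtie 1.2.2, STAR 2.7.0c and featureCounts were used with GRCm38.p6; their roles, the annotation and the use of strand are not given in the sources used here. No gene of the table had fewer than 10 counts in all. Symbols, coordinates and merged exon lengths came from GENCODE M21 (GRCm38), which located 25620 of 25674 identifiers.

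Samples were grouped by their titles. Genes were kept by edgeR's filterByExpr (minimum count 10), libraries were scaled with TMM, and edgeR 4.0.16 (R 4.3.3) fitted the robust quasi-likelihood F-test of genotype with no covariate, with Benjamini-Hochberg adjustment over all tested genes and a threshold of 0.05. The standard error is the absolute log2 fold change over the square root of F. The scripts were tested on simulated data. CPM uses the TMM-scaled library size, and 3 counts, taken as the floor, equal 0.219 to 0.250 CPM; floors cover counting error only, since amplified reads are not independent molecules. Marker lists were compared with exact permutation tests over all 924 splits.

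The members and the lists were chosen with earlier results of these data known. Named by rule were the 10 genes of the set, Isl1, each pathway gene past the threshold, the 2 most abundant genes of each list and the 5 genes most like Chrdl1; Helt and Slc22a3, Id1, Smad5, Smad9, Bmper and single marker and neuronal genes are named beside these, chosen after their values were seen. Alternatives were DESeq2 1.42.0 size factors and Wald test, no filter, limma-voom (limma 3.58.1), a replicate block, Y-linked or other cell type marker levels as covariates, and leaving out libraries. No pair of libraries in a group agreed within sampling noise (chi-square per degree of freedom of at least 20.5).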

Additional observations from a re-analysis of the deposited data

Results flagged for a closer look

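Dixon's criterion was applied to 58 sets of 6 libraries, of which about 2.9 would pass by chance. In 8 of them a single library was set apart, and 5 of these concern Nog, Bmp2, Bmp4 and Bmp7. Chrdl1 reached 23.1 CPM in ISL1CKO replicate 2, against 2.91 to 8.39 CPM in the others. Bmpr1b reached 24.4 CPM in ISL1CKO replicate 5, against 5.04 to 7.93 CPM. Smad4 reached 70.5 CPM in control replicate 3, against 36.5 to 45.9 CPM. Nog reached 5.78 CPM in control replicate 4, against at most 0.997 CPM. Bmp2 reached 1.66 CPM and Bmp7 1.16 CPM in control replicate 1, against at most 0.501 and 0.396 CPM. Bmp4 reached 2.37 CPM in control replicate 2, against at most 0.0831 CPM, and 5.27 CPM in ISL1CKO replicate 3, against at most 1.27 CPM.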

How the results depend on the processing

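The fall of Chrdl1 kept its direction under all 20 alternatives, with log2 fold changes from -7.07 to -6.18 (-7.04 to -6.18 with 1 library left out). The count of called genes among the other 9 of the set, 0, was 1 under limma-voom and 0 under the other 19 alternatives. Of the listed pathway genes, 10 in the test reported, the DESeq2 Wald test called 16 and the fit without the 3 mixed-sex libraries called 6; over all genes, 1511 were called in the test reported, 2470 by DESeq2, 767 without those 3 libraries and 943 when macrophage and Schwann marker levels entered as covariates. Rgma, Neo1, Fstl1 and Id4 passed under all 20 alternatives; Twsg1 and Zeb2 lost their call under 1 of the 20, Smad1 and Smad4 under 2, Tbx3 under 11 and Tob1 under 15. The cause was not tested, but leaving out libraries also means fewer samples. Of the marker lists, 3 differed in the test reported, 0 with a pseudocount of 0.1, 0 without the 3 libraries, and 0 to 3 with 1 library left out. The otic epithelium list, whose difference was 0.0038, changed sign to -0.11 without the 3 libraries and ran from -0.066 to 0.13 with 1 library left out. Same-numbered libraries did not deviate together (r of their deviations from the group means -0.06 to 0.16), so the numbers were not taken to pair samples; with the replicate number as a block, 0 genes of the set, 10 pathway genes and 1450 genes in all were called, and 2 of the 6 libraries labelled ISL1CKO correlated best with the control of their own number. Nog, Bmp2, Bmp4 and Bmp7 had too few libraries with counts to pass the filter; without it 0 of them passed after adjustment.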
